A study of Mus musculus with 7 samples.

Results

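The coagulation factor and fibrinogen genes are 10 genes whose proteins the liver releases into plasma: F2, F7, F10, F11 and F12 (clotting factors), Fga, Fgb and Fgg (the 3 chains of fibrinogen), and Proc and Serpinc1 (inhibitors of clotting). Their accessible regions were taken from the consensus regions of an ATAC-seq experiment, an assay in which a transposase inserts sequencing adapters into exposed DNA, as every region that overlaps a gene body or the 10000 bp on either side of it in GENCODE M21. This gave 41 of 55680 regions, 14 around the fibrinogen genes and 27 around the other 7 genes. The liver samples came from male C57BL/6N mice fed ad libitum, with 3 samples from mice aged 3 months (young) and 4 from mice aged 18 months (aged), and the labels name no allele or treatment for either group. The deposited design text says that the aged samples came from 3 animals, of which 1 gave 2 lobules. The labels do not say which samples share that animal, and the paper counts the 4 as biological replicates. By the design text, all p-values therefore treat the aged samples as more independent than they were.

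Clotting is a chain of serine proteases that circulate as inactive precursors, most of them made by hepatocytes. The contact arm (F12, then F11) and the tissue factor arm (F7) meet at factor X (F10), which turns prothrombin (F2) into thrombin, and thrombin cuts fibrinogen into the fibrin of the clot. Antithrombin (Serpinc1) blocks thrombin and factor X, and activated protein C (Proc) destroys cofactors of the chain, while the fibrinogen chains are known as acute phase proteins, whose synthesis in hepatocytes goes up in inflammation.

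The counts in regions summed to between 4474652 and 25461110 per sample. Accessibility is given as CPM, the counts scaled to a common library total with TMM factors, and aged was compared with young by edgeR's quasi-likelihood test with Benjamini-Hochberg adjustment over all 55680 regions, with a region called at an adjusted p under 0.05. Promoter regions were present for 8 of 8 hepatocyte marker genes, for none of 5 lymphocyte markers and for none of 6 genes of other tissues. The summed promoter CPM of the hepatocyte markers was 705 to 799 in young and 858 to 991 in aged samples, without overlap between the ages, and 1 of the 8 (Apoa1) was called more accessible, where 4.48% of all promoter regions were called more accessible and 3153 of 15422 had every aged sample above every young one. The stellate cell markers, of which 2 of 5 had a promoter region, summed to 20.9 to 24.0 CPM in young and 11.9 to 19.0 CPM in aged samples. Of these 2 promoter regions 0 were called, and 1369 of all 15422 promoter regions had every aged sample below every young one. The sums of the other lists overlapped between the ages, at 59.4 to 65.4 against 48.4 to 80.7 CPM for 3 of 5 sinusoidal endothelial markers, 2.22 to 2.65 against 0.588 to 2.80 CPM for the Kupffer cell marker Clec4f (the other 4 had no promoter region) and 41.7 to 49.5 against 36.7 to 54.3 CPM for 2 of 4 cholangiocyte markers. In such bulk samples fewer cells of a type and lower accessibility per cell cannot be told apart, and the part of these shifts in the results that follow was not tested.

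Of the 41 regions, 6 were more accessible in aged liver, 4 were less accessible and 31 were not called. Over all regions the percentages called were 2.44% for more and 3.3% for less. The 6 regions that gained all lay in the fibrinogen cluster. There, 14 of 14 regions had a log2 fold change above 0, against 25929 of 55680 over all regions, and the median was 0.93 against -0.04. These 14 regions are neighbours at 1 locus and not separate measurements. The 4 regions that lost accessibility lay near F11, Proc, F2 and Serpinc1, 1 at each, and none of the 4 was at a promoter. Around the 7 other genes, 0 of 27 regions gained and the median log2 fold change was 0.07. Every aged sample exceeded every young one in 10 of the 41 regions, and every aged sample was lower in 5, where the percentages over all regions were 10.2% and 11.6%. The number of calls depended on single libraries, young replicate 1 above all: without it, 0 regions gained and 1 lost among the 41, while over all regions the calls fell from 1360 to 55 for more and from 1838 to 133 for less. Among the 41, the counts of gains and losses were 1 and 1 without young replicate 2, 11 and 4 without young replicate 3, 2 and 2 without aged replicate 1, and 4 and 2 without aged replicate 3. Over all regions, the same fits gave 196 and 250, 1056 and 1595, 129 and 273, and 176 and 475. With offsets fitted on mean abundance the 41 gave 1 and 2, and all regions 250 and 422. With offsets fitted on GC content or with limma voom the 41 gave 12 and 4, and all regions 3613 and 2047 or 2197 and 2383. With 2 of the aged samples summed as if they came from the same animal, the 6 possible pairs gave 4 to 9 gains and 3 to 4 losses among the 41. Over all regions these pairs gave 269 to 2164 gains and 693 to 2578 losses.

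**Figure D1:**
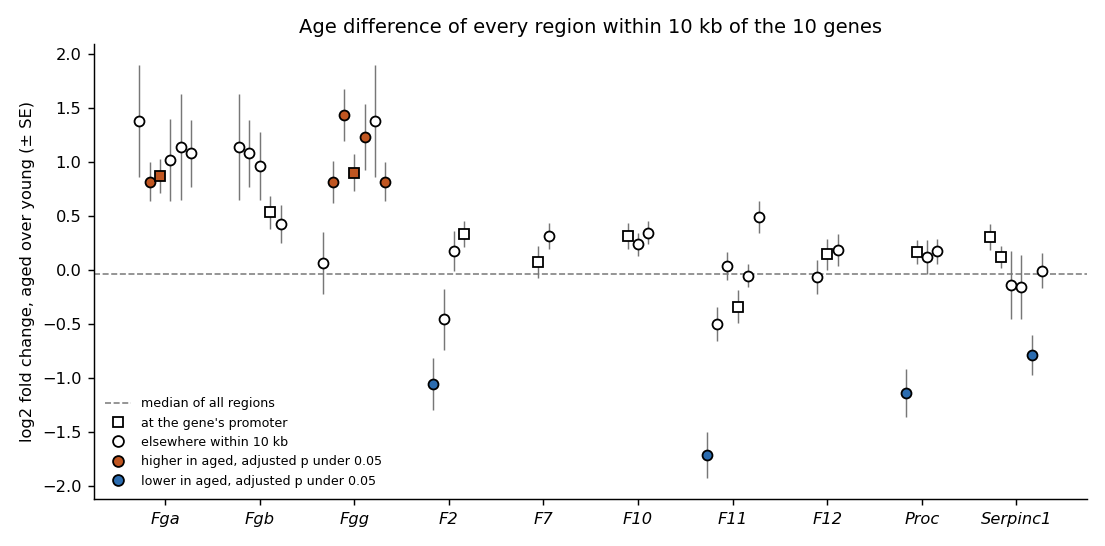
Log2 fold change (aged over young, vertical axis, with SE bars) of every region within 10000 bp of each of the 10 genes, in genomic order within a gene; squares cover the gene's promoter, fill marks calls, and regions shared by neighbouring genes appear under each. All filled points above 0 belong to the fibrinogen genes, and the 4 filled points below 0 are circles at F2, F11, Proc and Serpinc1.

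The 3 fibrinogen genes lie side by side on chromosome 3 (GRCm38), in the order Fgg (83007724 to 83015049, plus strand), Fga (83026076 to 83033627, plus strand) and Fgb (83040141 to 83049863, minus strand). The Fgg promoter region, from 83007125 to 83008723, covers the gene's start and first coding exons and also the start of Gm30097. Its accessibility was 44.3, 44.7 and 47.7 CPM in young replicates 1 to 3 and 109, 58.8, 73.3 and 96.0 CPM in aged replicates 1 to 4. The highest young sample was 1.08 times the lowest, and every aged sample was above all of them. The log2 fold change was 0.90 ± 0.17 (SE), 1.87-fold, with an adjusted p of 0.0143.

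The promoter region of Fga, which encodes the alpha chain, runs from 83025617 to 83026761 and measured 30.8, 32.9 and 33.5 CPM in young and 78.6, 53.2, 45.5 and 57.0 CPM in aged samples. Again the ages did not overlap, and the gain was 0.87 ± 0.16 on the log2 scale, 1.82-fold (adjusted p = 0.0130). The promoter region of Fgb, which encodes the beta chain, runs from 83049689 to 83054021 and measured 67.8, 74.4 and 97.5 CPM in young and 130.2, 94.3, 101 and 133 CPM in aged samples. Young replicate 3 was above aged replicate 2, and the log2 fold change of 0.53 ± 0.15 missed the threshold (adjusted p = 0.0569). Over all 15422 promoter regions, 4.48% were called more accessible and 2.06% less accessible, with a median log2 fold change of 0.09, and among the 10 promoters of the genes described here 2 were called more accessible (Fgg and Fga) and 0 less, with a median of 0.24. The calls of Fgg and Fga were lost without young replicate 1 (adjusted p = 0.0648 and 0.0640), without young replicate 2 (0.0622 and 0.0525) and with offsets fitted on mean abundance (0.0680 and 0.0599), and that of Fgg also without aged replicate 1 (0.0514). Fgb was called in 6 alternatives, with DESeq2 (0.0196), limma voom (0.0281), GC offsets (0.0323) and aged samples 2 and 4 summed (0.0318), and without young replicate 3 (0.0248) or aged replicate 2 (0.0397).

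**Figure D2:**
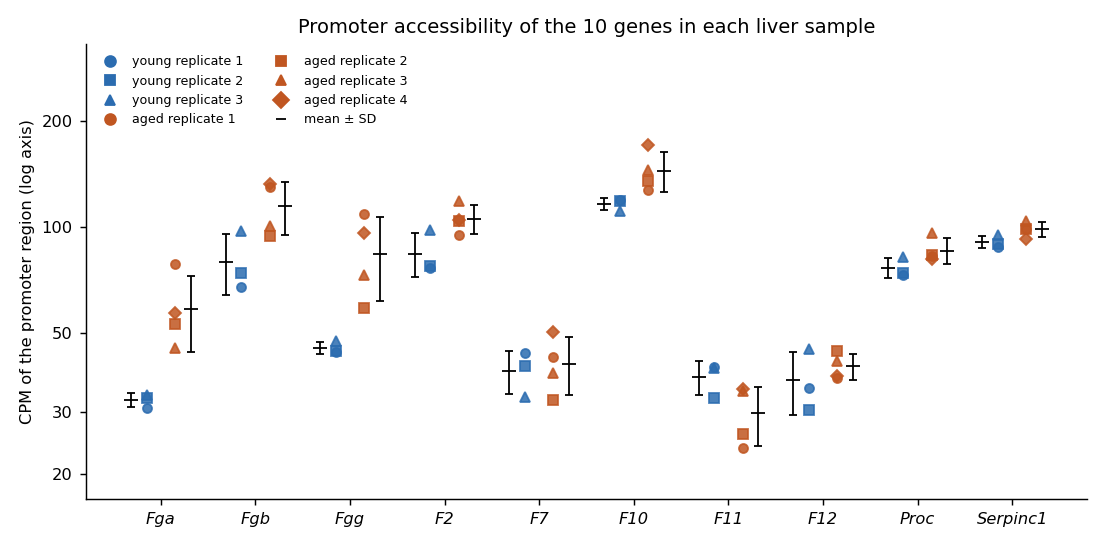
CPM (log axis) of the promoter region of each of the 10 genes, with a point per sample, young in blue and aged in orange, and black bars for the mean ± SD of 3 young and 4 aged samples. At Fga, Fgg and F10 every aged point is above every young point, at F12 all aged points lie within the young range, and at F11 the aged mean is below the young one.

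The bases just before the 3 fibrinogen starts are shown because the genes are neighbours and 2 of their promoters were called, and whether the 3 promoters differ from each other in their age change was not tested. The 150 bases before each start (the more upstream of the RefSeq and GENCODE starts) were taken from the RefSeq promoter table of GRCm38.p6, which holds 9 of the 10 genes (all but Proc), and 6 patterns were searched on both strands: TATAAA (bound by TBP), GTTAAT (bound by HNF1, a liver factor), CAAAGNNCA (HNF4), TTGCNNAA (C/EBP), TTCNNNGAA (STAT) and TTANNTAA (PAR bZIP, the family of DBP), where N is any base. Capitals mark the matches, and each sequence is written 5′ to 3′ on the gene's strand.
Fgg, chr3:83007574-83007723, plus strand: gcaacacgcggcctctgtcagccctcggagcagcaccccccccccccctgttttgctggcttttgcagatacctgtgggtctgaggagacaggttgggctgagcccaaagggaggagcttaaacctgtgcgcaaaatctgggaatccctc
Fga, chr3:83025926-83026075, plus strand: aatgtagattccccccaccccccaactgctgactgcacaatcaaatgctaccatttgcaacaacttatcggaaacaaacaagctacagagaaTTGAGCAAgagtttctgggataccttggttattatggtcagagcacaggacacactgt
Fgb, chr3:83049864-83050013, minus strand: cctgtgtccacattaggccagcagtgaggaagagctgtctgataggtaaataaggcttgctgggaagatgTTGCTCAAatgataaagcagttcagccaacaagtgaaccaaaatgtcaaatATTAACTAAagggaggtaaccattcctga
No pattern was found in the Fgg window. The Fga window holds the C/EBP letters, and the Fgb window holds the C/EBP letters, with the HNF1 letters and the PAR bZIP letters overlapping each other 21 to 29 bases before the start. Among 32809 promoters of the same length, the C/EBP letters occur in 5.5%, the HNF1 letters in 3.7% and the PAR bZIP letters in 2.9%. The TBP and STAT letters, present in 7.6% and 4.1% of promoters, occur in none of the 9 windows. A match is a description of the letters and not of binding.

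Upstream of Fgg, 2 regions gained accessibility. The region 2493 bp upstream, from 83004811 to 83005231, had the largest fold change of all 41 regions in the positive direction and measured 6.11, 10.6 and 10.4 CPM in young and 29.6, 15.5, 22.2 and 29.1 CPM in aged samples. The lowest aged sample was above the highest young one, and the log2 fold change was 1.43 ± 0.24, 2.70-fold (adjusted p = 0.0110), on counts of 63 to 337 per sample. The region 4049 bp upstream, from 83002335 to 83003675, measured 27.3, 30.7 and 20.9 CPM in young and 50.0, 34.5, 37.1 and 63.8 CPM in aged samples, also without overlap (log2 fold change 0.81 ± 0.20, adjusted p = 0.0313). Still farther out, 8265 bp upstream, a weak region of 4.44 to 10.5 CPM differed by 0.06 ± 0.29 on the log2 scale (adjusted p = 0.921) and aged samples on both sides of the young ones. The call 2493 bp upstream was lost without young replicate 1 (adjusted p = 0.0515). The call 4049 bp upstream was lost without any of young replicates 1 to 3 (adjusted p = 0.0890, 0.0642 and 0.0756) or aged replicates 1 and 3 (0.0898 and 0.0556), with aged samples 1 and 3 summed (0.0558), with at least 10 counts required in every sample (0.0554) and with offsets fitted on mean abundance (0.114).

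The central 200 bases of the region 2493 bp upstream of Fgg are shown as the stretch at the middle of the largest gain. It overlaps no annotated exon, and capitals again mark the patterns, here the PAR bZIP and HNF1 letters, which occur in 4.5% and 6.1% of the central 200 bases of all regions.
Region upstream of Fgg, chr3:83004921-83005120, plus strand: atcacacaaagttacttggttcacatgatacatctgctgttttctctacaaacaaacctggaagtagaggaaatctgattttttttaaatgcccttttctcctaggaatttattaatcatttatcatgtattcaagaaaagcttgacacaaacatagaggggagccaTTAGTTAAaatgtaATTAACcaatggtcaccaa

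Between Fgg and Fga, a region from 83020098 to 83021329 and 5049 bp past the end of Fgg, measured 25.4, 24.0 and 25.0 CPM in young and 48.1, 32.0, 35.0 and 57.5 CPM in aged samples. All aged samples lay above the narrow young range (log2 fold change 0.82 ± 0.18, adjusted p = 0.0214). That call was lost without young replicate 1 (0.0744), young replicate 2 (0.0803) or aged replicate 1 (0.0728) and with offsets fitted on mean abundance (0.0784).

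The regions over the fibrinogen gene bodies and gene ends had large fold changes and a large spread between samples of the same age. The Fgg body, from 83009031 to 83012992, measured 55.9, 52.3 and 103 CPM in young and 244, 95.9, 108 and 200.1 CPM in aged samples. Young replicate 3 was above aged replicate 2, and aged replicates 1 and 4 were above all others. The log2 fold change was 1.23 ± 0.31 (adjusted p = 0.0341). The call of the Fgg body was lost without young replicate 1 (0.120), young replicate 2 (0.122), aged replicate 1 (0.101) or aged replicate 3 (0.0550), with aged samples 1 and 3 (0.0520) or 1 and 4 (0.0514) summed, with at least 10 counts required in every sample (0.0571), with DESeq2 (0.0756) and with offsets fitted on mean abundance (0.189).

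Young replicate 3 and aged replicates 1 and 4 were the 3 highest libraries in each of the other regions over gene bodies and ends. From 83015221 to 83017302, just past the end of Fgg, accessibility was 19.8, 16.6 and 67.4 CPM in young and 142, 28.6, 45.3 and 120.1 CPM in aged samples. The log2 fold change there was 1.38 ± 0.52 and not called (adjusted p = 0.120), and young replicate 3 exceeded aged replicates 2 and 3. From 83030290 to 83035415, over the later exons and end of Fga, the values were 48.3, 53.0 and 156 CPM in young and 279, 64.1, 94.5 and 296 CPM in aged samples (log2 fold change 1.14 ± 0.49, adjusted p = 0.168). The broadest region, from 83038543 to 83045898 over the body and end of Fgb, measured 103, 95.3 and 177 CPM in young and 349, 153, 162 and 379.8 CPM in aged samples. It is the strongest region outside promoters for both Fga and Fgb, and its log2 fold change of 1.08 ± 0.31 was just above the threshold (adjusted p = 0.0533). It was called in 8 alternatives, without young replicate 3 (0.0352) or aged replicate 2 (0.0314), with limma voom (0.0331), with GC offsets (0.0331) and with aged samples 1 and 2 (0.0398), 2 and 3 (0.0473), 2 and 4 (0.0200) or 3 and 4 (0.0401) summed. Smaller regions within Fga (83028414 to 83029979) and Fgb (83046256 to 83047622) had log2 fold changes of 1.02 ± 0.38 and 0.96 ± 0.31 (adjusted p = 0.118 and 0.0780).

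Within the young group alone, the highest sample was 4.07 times the lowest at the end of Fgg, 3.23 times over the end of Fga and 2.64 times within Fga. Over the 47355 regions with at least 10 counts in every sample this ratio had a median of 1.32 and a 99th percentile of 2.73. The Fgg and Fga promoter regions had young ratios of 1.08 and 1.09. In aged samples the ratio was 4.95 at the end of Fgg and 4.62 over the end of Fga, where the median over regions was 1.49 and the 99th percentile 3.81. Aged replicates 1 and 4 are the deepest aged libraries, with 11717992 and 8397956 counts, and young replicate 3 is the shallowest young library, with 5709327, and the part of depth in this spread was not tested.

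**Figure D3:**
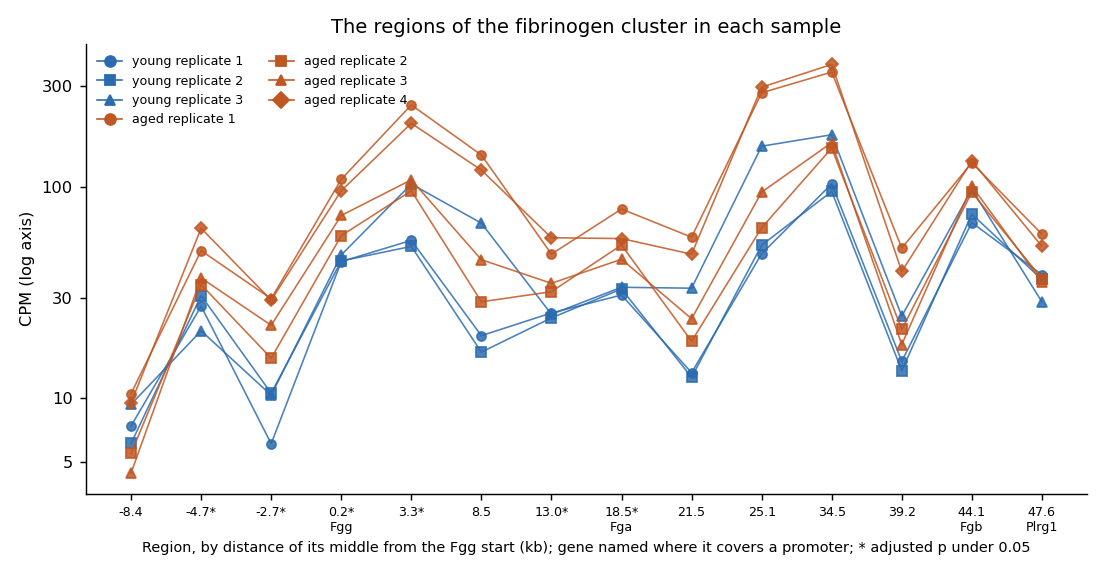
CPM (log axis) of the 14 regions of the fibrinogen cluster in each sample, ordered by the distance of their middle from the Fgg start, with a line per sample in blue (young) or orange (aged). Young replicate 3 lies with the other young samples at the promoters of Fgg and Fga and between them and aged replicates 1 and 4 over the gene bodies.

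At the far side of the cluster, the promoter region of Plrg1 (83054847 to 83055882), a gene for a splicing protein, 4984 bp upstream of Fgb, measured 38.5, 36.5 and 28.6 CPM in young and 59.8, 36.9, 35.5 and 52.4 CPM in aged samples. Aged replicates 2 and 3 fell inside the young range, and the log2 fold change of 0.43 ± 0.18 was not called (adjusted p = 0.155). The log2 fold changes thus ran from 0.06 at the outermost region before Fgg, through 0.81 to 1.43 from 4049 bp upstream of Fgg into the Fgb gene, to 0.53 and 0.43 at the Fgb and Plrg1 promoters.

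**Figure D4:**
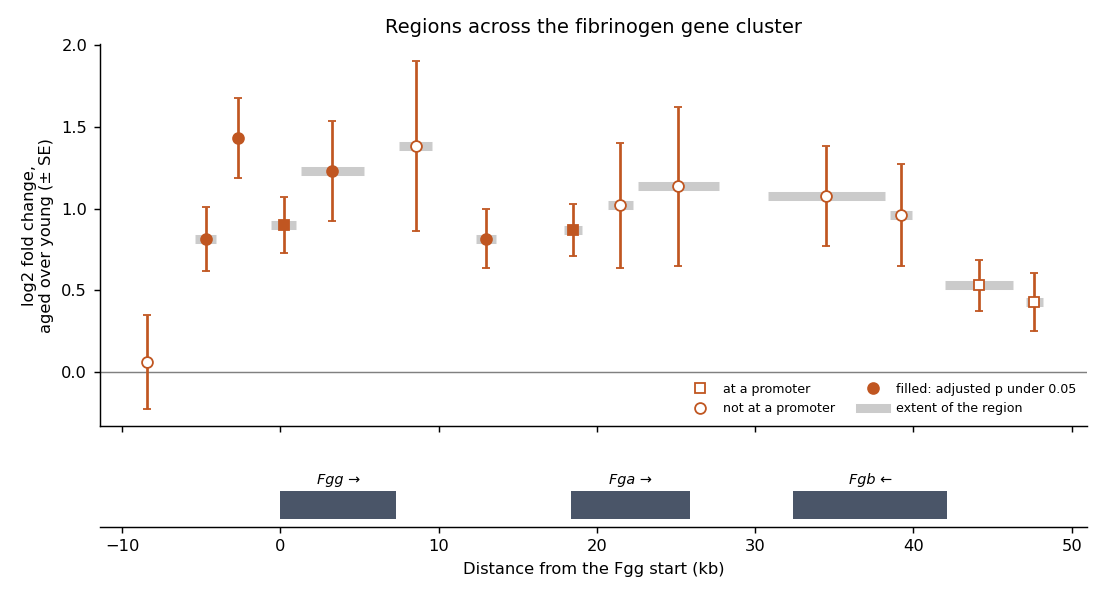
Log2 fold change (aged over young, with SE bars) of the 14 regions against distance from the Fgg start in kb, with gene bodies and their strand drawn underneath; grey bars give the extent of each region, squares are promoters and filled symbols are called. The longest SE bars belong to uncalled regions over the gene bodies and ends, and the 6 called regions lie between the region 4049 bp upstream of Fgg and the Fga promoter.

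When all regions of a gene were summed and tested over 16231 protein-coding genes, Fgg gained accessibility, at 186, 185 and 284 CPM in young and 633, 271, 325 and 576 CPM in aged samples (log2 fold change 1.06 ± 0.27, adjusted p = 0.0402). Young replicate 3 was above aged replicate 2. Over all genes, 6.1% were called more accessible and 3.27% less accessible. Fga (log2 fold change 1.06 ± 0.37, adjusted p = 0.0828) and Fgb (0.90 ± 0.32, adjusted p = 0.0840) share 2 regions, and Fga shares 2 with Fgg, so the 3 sums are not separate measurements. The Fgg sum was no longer called without young replicate 1 (0.0901), young replicate 2 (0.118), aged replicate 1 (0.107) or aged replicate 3 (0.0732), nor with aged samples 1 and 3 (0.0672), 1 and 4 (0.0664) or 3 and 4 (0.0528) summed, at least 10 counts required in every sample (0.0600), total counts as library sizes (0.0566) or offsets fitted on mean abundance (0.168), while the Fga and Fgb sums were called without aged replicate 2 (0.0410 and 0.0409) and with aged samples 2 and 4 summed (0.0368 and 0.0360).

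Among the clotting factors, prothrombin (F2, chromosome 2, 91625320 to 91636414, minus strand) had a promoter region from 91634876 to 91637705 of 76.8, 77.6 and 97.8 CPM in young and 94.9, 104, 118 and 105 CPM in aged samples. Young replicate 3 lay above aged replicate 1, and the log2 fold change was 0.33 ± 0.12 (adjusted p = 0.117), which passed the threshold without young replicate 3 (0.0449) and with GC offsets (0.0374). A weak region 5041 bp past the gene's end, from 91619707 to 91620279, lost accessibility. It measured 9.26, 6.84 and 7.23 CPM in young and 3.43, 3.33, 4.67 and 3.69 CPM in aged samples, without overlap, on counts of 17 to 181 per sample. The log2 fold change was -1.06 ± 0.24 (adjusted p = 0.0250), 2.08-fold lower. The call was lost without young replicate 1 (0.121), young replicate 2 (0.0682), aged replicate 1 (0.0797) or aged replicate 3 (0.0544) and with offsets fitted on mean abundance (0.105). The strongest F2 region outside the promoter, at 91633086 to 91633785 in the gene, gave 0.17 ± 0.18 on the log2 scale (adjusted p = 0.601), and the remaining one, from 91630549 to 91630796, gave -0.46 ± 0.29 (adjusted p = 0.339).

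F7 and F10 are neighbours on chromosome 8 (F7 from 13026034 to 13035809 and F10 from 13037308 to 13056676, both on the plus strand). The F7 promoter region, from 13025226 to 13026786, measured 43.9, 40.5 and 33.0 CPM in young and 43.0, 32.4, 38.5 and 50.5 CPM in aged samples. The ages overlapped, and the log2 fold change was 0.07 ± 0.15 (adjusted p = 0.809). The F10 promoter region, from 13036201 to 13039410, which begins 392 bp past F7, measured 119, 118 and 111 CPM in young and 128, 135, 145 and 171 CPM in aged samples. Every aged sample was above every young one, by 0.31 ± 0.12 on the log2 scale, which was not called (adjusted p = 0.123). The F10 promoter was called with offsets fitted on GC content (0.0286) and turned to -0.05 with offsets fitted on mean abundance.

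The same order held at the other F10 regions. At the F10 end (13056312 to 13058214) the values were 58.0, 58.1 and 57.9 CPM in young and 61.1, 65.3, 76.3 and 70.9 CPM in aged samples (log2 fold change 0.23 ± 0.11, adjusted p = 0.204). At the promoter of the adjacent Proz (13060097 to 13062624), the gene of protein Z, a cofactor in the inhibition of factor X, they were 59.9, 62.5 and 56.4 CPM in young and 73.1, 72.2, 77.7 and 80.1 CPM in aged samples (log2 fold change 0.34 ± 0.10, adjusted p = 0.0646). The sum over the 3 regions of F10 was 225 to 239 CPM in young and 262 to 322 CPM in aged samples (log2 fold change 0.30 ± 0.09, adjusted p = 0.0597). The F10 sum was called with DESeq2 (adjusted p = 0.00882), limma voom (0.0498) and aged samples 2 and 4 summed (0.0441), and was at -0.01 on the log2 scale with offsets fitted on mean abundance.

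F11 (chromosome 8, 45241174 to 45262031, minus strand), the contact arm protease that activates factor IX, had the region with the largest loss among the 41. The region 3681 bp past its end, from 45236408 to 45237493, measured 19.8, 16.0 and 12.5 CPM in young and 5.01, 4.71, 3.97 and 5.73 CPM in aged samples. The lowest young sample was well above the highest aged one, on counts of 17 to 424. The log2 fold change was -1.72 ± 0.21, 3.29-fold lower (adjusted p = 0.00417), and of the 10 calls among the 41 regions it was the only one that held in each of the 21 alternative fits, with log2 fold changes of -1.84 to -1.54 and adjusted p of at most 0.0309. The adjoining region, from 45238017 to 45240338 and 836 bp past the gene's end, measured 45.3, 36.1 and 33.5 CPM in young and 29.6, 23.3, 21.9 and 32.2 CPM in aged samples, without overlap and not called (log2 fold change -0.50 ± 0.16, adjusted p = 0.0705).

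The F11 promoter region (45261068 to 45263177) measured 40.1, 32.9 and 39.8 CPM in young and 23.7, 25.9, 34.3 and 34.7 CPM in aged samples, and its log2 fold change of -0.34 ± 0.15 was the only one below 0 among the 10 promoters (adjusted p = 0.186). Upstream of it, the strongest region outside the promoter (45264084 to 45265872) stayed within 44.6 to 48.9 CPM in all 7 samples (log2 fold change -0.05 ± 0.10, adjusted p = 0.786). The next, 5151 bp upstream (45267182 to 45268504), was higher in all aged samples, with 17.2, 17.2 and 22.2 CPM in young and 24.9, 24.7, 29.6 and 25.8 CPM in aged samples (log2 fold change 0.49 ± 0.15, adjusted p = 0.0652). Within the gene, accessibility from 45253206 to 45255513 differed between the ages by 0.03 ± 0.13 on the log2 scale (adjusted p = 0.906).

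The sequences of F7 and F11 are shown for contrast with the fibrinogen promoters, together with the centre of the region with the largest loss. The promoter windows are the 150 bases before the start, as above, and the region is given by its central 200 bases, which overlap no annotated exon.
F7, chr8:13025884-13026033, plus strand: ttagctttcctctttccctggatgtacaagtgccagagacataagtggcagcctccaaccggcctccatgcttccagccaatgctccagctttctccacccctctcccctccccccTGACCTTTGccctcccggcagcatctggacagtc
F11, chr8:45262032-45262181, minus strand: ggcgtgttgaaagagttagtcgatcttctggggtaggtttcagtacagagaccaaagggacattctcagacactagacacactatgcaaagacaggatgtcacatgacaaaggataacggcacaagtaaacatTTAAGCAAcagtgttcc
Region past the end of F11, chr8:45236850-45237049, plus strand: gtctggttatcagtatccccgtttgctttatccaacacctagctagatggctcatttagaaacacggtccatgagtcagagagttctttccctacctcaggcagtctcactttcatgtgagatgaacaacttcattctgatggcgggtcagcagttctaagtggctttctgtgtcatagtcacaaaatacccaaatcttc
The F7 window holds the HNF4 letters (3.2% of promoters) 26 to 34 bases before the start, and the F11 window the C/EBP letters 10 to 17 bases before the start. With Fga and Fgb, the C/EBP letters were thus in 3 of the 9 windows, where 5.5% of all promoters hold them. Of these 3 genes only Fga had a called promoter, and a link between the letters and the age change was not tested. None of the 6 patterns was in the centre of the region past F11, where the share of all regions with a pattern ran from 4.5% to 10.1%. The windows of F2, F10, F12 and Serpinc1 held none of the 6 patterns. The Serpinc1 window lies before the gene's first start, outside the region from 160985699 to 160989720 that was taken as its promoter region.

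F12 (chromosome 13, 55417958 to 55426793, minus strand), which starts the contact arm, showed no call in its 3 regions. The promoter region (55425973 to 55427803) measured 35.1, 30.4 and 45.1 CPM in young and 37.3, 44.5, 41.8 and 37.9 CPM in aged samples, all aged values within the young range (log2 fold change 0.14 ± 0.14, adjusted p = 0.570). The strongest other region, 2293 bp upstream, gave 0.18 ± 0.15 on the log2 scale (adjusted p = 0.475) and the one within the gene -0.07 ± 0.16 (adjusted p = 0.837).

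Neither inhibitor gene had a called promoter, and each had 1 weaker region that lost accessibility. For Proc (chromosome 18, 32123126 to 32139570, minus strand) the promoter region measured 73.3, 74.2 and 82.5 CPM in young and 82.8, 83.2, 96.4 and 81.1 CPM in aged samples. Young replicate 3 lay among the aged samples, and the log2 fold change was 0.16 ± 0.11 (adjusted p = 0.381). The region 77 bp past the gene's end, from 32121345 to 32123049, measured 15.4, 13.6 and 12.2 CPM in young and 8.26, 4.31, 6.30 and 5.47 CPM in aged samples. The ages did not overlap, and the log2 fold change was -1.14 ± 0.22, 2.21-fold lower (adjusted p = 0.0146). This loss was not called without young replicate 1 (0.0744) or young replicate 2 (0.0600). The 2 regions upstream of Proc (5636 and 7557 bp) had log2 fold changes of 0.12 ± 0.16 and 0.17 ± 0.11 (adjusted p = 0.697 and 0.376), and at the second, the strongest Proc region outside promoters, every aged sample was above the young ones, at 35.2 to 39.0 against 31.4 to 34.6 CPM.

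For Serpinc1 (chromosome 1, 160978585 to 161005863, plus strand), 2 regions cover annotated starts. The stronger (160985699 to 160989720), over alternative starts that also include Gm37729, measured 88.0, 89.5 and 94.9 CPM in young and 99.1, 99.0, 104 and 92.4 CPM in aged samples (log2 fold change 0.12 ± 0.10, adjusted p = 0.499). The region over the first start (160977958 to 160981692) measured 67.3, 67.4 and 80.7 CPM in young and 83.4, 94.7, 96.7 and 79.0 CPM in aged samples (log2 fold change 0.30 ± 0.12, adjusted p = 0.134). At both, 3 of 4 aged samples were above all young ones. A region over later coding exons (160997234 to 160998637) lost accessibility, from 15.1, 15.1 and 13.5 CPM in young to 8.79, 8.43, 10.3 and 6.62 CPM in aged samples (log2 fold change -0.79 ± 0.19, 1.73-fold lower, adjusted p = 0.0294). It was not called without young replicate 1 (0.108), young replicate 2 (0.106), aged replicate 1 (0.0748) or aged replicate 3 (0.0556), nor with aged samples 1 and 3 summed (0.0533) or offsets fitted on mean abundance (0.0754). The strongest Serpinc1 region outside promoters, 50 bp past the gene's end, gave -0.01 ± 0.17 on the log2 scale (adjusted p = 0.985), and 2 weak intronic regions gave -0.14 ± 0.31 and -0.16 ± 0.29 (adjusted p = 0.819 and 0.783).

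**Figure D5:**
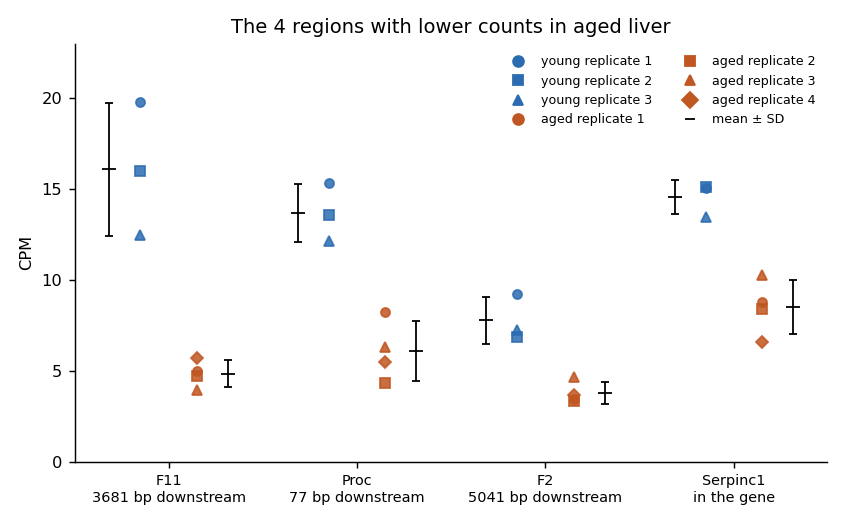
CPM of the 4 regions with an adjusted p under 0.05 and lower values in aged liver, with a point per sample and the mean ± SD of 3 young (blue) and 4 aged (orange) samples. All 4 are regions of at most 19.8 CPM, and the ages do not overlap in any of them.

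Over the 18 regions of the 7 non-fibrinogen genes that cover no promoter, 4 lost and 0 gained accessibility, and the median log2 fold change was -0.06. Of the 40258 regions outside promoters in the whole set, 3.78% were called less accessible and 1.66% more accessible, with a median of -0.09.

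Per kb of region, the promoter level in young liver was highest at F10 (36.2 ± 1.40 CPM per kb, SD, n = 3) and lowest at F11 (17.8 ± 1.92). In between came F2, Fgg, Fga, F7, Serpinc1, Proc, F12 and Fgb, in that order, with 29.7 ± 4.21 for F2, 28.5 ± 1.15 for Fgg, 28.3 ± 1.25 for Fga and 18.4 ± 3.60 for Fgb. F10 and F2 did not overlap in their young samples, and every other pair of neighbours in this order did. In aged liver Fgg (52.7 ± 14.0, SD, n = 4) and Fga (51.2 ± 12.4) had the highest mean levels, before F10 (45.1 ± 5.86) and F2 (37.3 ± 3.42), and F11 was again the lowest (14.1 ± 2.70).

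Summed over their regions, the 7 other genes were not called. The log2 fold changes were 0.26 ± 0.11 for F7 (adjusted p = 0.127), where the shared F10 promoter region makes up most of the counts, 0.21 ± 0.10 for F2 (0.164), 0.11 ± 0.09 for F12 (0.414), 0.10 ± 0.10 for Serpinc1 (0.478), 0.07 ± 0.08 for Proc (0.558) and -0.20 ± 0.09 for F11 (0.143). With total counts as library sizes the F11 sum was called lower (adjusted p = 0.0383). That scaling moved the median over all regions from -0.04 to -0.15.

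A wider list of 32 other genes of clotting and of fibrinolysis, the breakdown of clots, gave 26 promoter regions. Of these, 2 were called more accessible and 0 less, beside the 4.48% and 2.06% of all promoter regions, with a median log2 fold change of 0.30, against 0.09 over all promoter regions. The 2 were Kng1 (47.1 ± 1.86 CPM in young, SD, n = 3, and 66.2 ± 6.62 in aged, n = 4, log2 fold change 0.49 ± 0.11, adjusted p = 0.0267) and Kng2 (48.2 ± 2.15 and 66.3 ± 6.90, 0.46 ± 0.11, adjusted p = 0.0342), neighbouring copies of the gene for kininogen, the cofactor of the contact arm. Reads of such close copies can be assigned to the wrong one. The number of pathway promoters called more accessible was 7 with DESeq2, 9 with GC offsets, 4 with limma voom and 4 without young replicate 3. Over all regions, the same fits called 2760, 3613, 2197 and 1056 more accessible, against 1360 in the main comparison. Neither Kng1 nor Kng2 was called without young replicate 1 (adjusted p = 0.105 and 0.125), young replicate 2 (0.0851 and 0.103), aged replicate 1 (0.0776 and 0.0632) or aged replicate 3 (0.0869 and 0.0956), nor with aged samples 1 and 3 (0.0721 and 0.0721) or 3 and 4 (0.0518 and 0.0618) summed, total counts (0.0519 and 0.0706) or offsets fitted on mean abundance (0.244 and 0.327), and Kng2 was not called without aged replicate 4 (0.0508), with aged samples 2 and 3 summed (0.0562) or with at least 10 counts in every sample (0.0617). The 3 other largest changes were negative and not called: Plaur, the urokinase receptor (-0.52 ± 0.29, adjusted p = 0.276), Thbd, thrombomodulin, the endothelial receptor that lets thrombin activate protein C (-0.48 ± 0.16, 0.0869), and Plau, urokinase (-0.42 ± 0.21, 0.236). Thbd measured 15.7, 17.1 and 16.8 CPM in young and 10.6, 11.6, 12.8 and 12.7 CPM in aged samples, and Plau 7.41, 6.73 and 7.73 CPM in young and 5.27, 5.30, 5.14 and 5.85 CPM in aged samples, both without overlap. Thbd was called lower with total counts as library sizes (adjusted p = 0.0444). In the list, 10 of 26 promoters had all aged samples above all young ones and these 2 had all aged samples below, where the counts over all 15422 promoter regions were 3153 and 1369. F13a1, Plat, Serpina5, Procr, Tfpi and Gp1ba had no promoter region.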

How the data were processed

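ATAC-seq reads from 3 young and 4 aged liver samples were counted over 55680 consensus regions, and the authors deposited these raw counts without normalization. Per the labels and the study's methods, nuclei were tagmented by the Omni-ATAC protocol, and the authors trimmed the reads with cutadapt 1.13, aligned them to GRCm38 with Bowtie2 2.4.1, removed reads of low mapping quality, duplicates and mitochondrial reads, called peaks per library with MACS2 2.2.7 and counted reads with featureCounts over peaks found in 2 libraries or more. Filtering on mapping quality lowers counts in sequences with close copies.

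Regions were assigned with GENCODE M21 to genes (body and 10000 bp either side, at least 1 bp of overlap) and to promoters (200 bp either side of a transcript start, the region with the highest mean log2 CPM where there were several). Counts were tested with edgeR 4.0.16 (R 4.3.3) by quasi-likelihood, with TMM factors, all 7 samples and no factor other than age, adjusted by Benjamini-Hochberg, once over regions and once over counts summed per protein-coding gene, with the library sizes of the region fit. Coordinates are those of the deposited region names. The 10 genes, the pathway list and the marker lists were chosen with earlier results of these data known. The split of the regions into those of the fibrinogen cluster and those of the other genes was not set beforehand. Named are all 10 genes, the promoter region and strongest region outside promoters of each, every region of theirs with an adjusted p under 0.05, and, of the pathway list, the called promoters and the 5 with the largest absolute log2 fold change; the remaining regions of the 10 genes and the neighbours Plrg1 and Proz were added after their values were seen.

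Alternatives were DESeq2 1.42.0, limma voom (limma 3.58.1), total counts in regions, loess offsets (span 0.3) on mean abundance and on GC content, filterByExpr and a minimum of 10 counts per sample, fits without 1 sample, sums of 2 aged samples (6 pairs), a block on replicate number, other windows (gene body only, 5 kb, promoters of 1000 bp) and a threshold of 0.01. On simulated counts in which 200 regions changed 2-fold, the region fit made 128 calls, found 61.5% of the changed regions and had 3.91% false calls. The gene fit made 203 calls, found 97% and had 4.43% false calls. Both simulations drew every library independently, with the same dispersion for all regions or genes. Only those above a minimum mean count were changed, so the rates are not those of the calls in the data. Libraries of the same age differed by more than sampling noise (chi-square per degree of freedom 2.47 to 6.10).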

Additional observations from a re-analysis of the deposited data

Results flagged for a closer look

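Groups of 4 samples were checked for a sample far from the others, over 40 values. At the Proc promoter region, aged replicate 3 had a log2 CPM of 6.59, against 6.34 to 6.38 in the remaining aged samples. The gap was 0.853 of the group's range, above Dixon's 95% critical value for 4 samples. Chance gives about 1 such value in 20 groups, so 1 of 40 is no more than that.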

How the results depend on the processing

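Calls among all 55680 regions ranged, for more and less accessible, from 1360 and 1838 to 55 and 133 when 1 sample was left out (highest 1630 and 2600), and among genes from 990 and 530 to 3 and 18 (highest 1599 and 688). The corresponding ranges without 1 sample were 0 to 11 and 1 to 5 for the 41 regions, 0 to 4 and 0 for the 10 promoters, 0 to 4 and 0 for the pathway promoters and 0 to 3 and 0 for the 10 summed genes. DESeq2 called 2760 regions more accessible and 2640 genes, 7 pathway promoters and 2 of the 10 genes. Limma voom called 2197 regions, 12 of the 41, 4 pathway promoters and 2 of the 10 genes more accessible, and GC offsets 3613 regions, 12 of the 41, 5 of the 10 promoters and 9 pathway promoters. Offsets on mean abundance left 250 and 422 regions, 1 and 2 of the 41, 49 and 121 genes, and 0 of the 10 promoters, the pathway promoters and the 10 genes more accessible. Total counts gave 543 and 2931 regions and 170 and 922 genes, 0 pathway promoters more accessible and 1 less, and 0 of the 10 genes more accessible and 1 less. Of all calls, 42.5% were for more accessibility in the main comparison, 58.8% with DESeq2, 63.8% with GC offsets and 15.6% with total counts. At least 10 counts in every sample left 525 and 802 regions, 227 and 335 genes, 1 pathway promoter and 0 of the 10 genes.

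Summing aged samples 1 and 3 left 269 and 693 regions, 32 and 90 genes, 0 pathway promoters and 0 of the 10 genes; samples 2 and 3 left 699 and 1107 regions, 380 and 278 genes and 1 pathway promoter; samples 3 and 4 left 727 regions more accessible, 243 and 288 genes, 0 pathway promoters and 0 of the 10 genes. Samples 1 and 4 left 457 genes more accessible and 0 of the 10, and samples 2 and 4 gave 2164 regions, 1673 genes and 4 of the 10 genes more accessible. Gene bodies alone held 3 gains and 1 loss, and a threshold of 0.01 left 0 gains and 1 loss. The cause of these differences was not tested, except that leaving out or summing samples also leaves fewer samples. Equal replicate numbers did not pair the samples (correlations of deviations -0.04 to 0.04), and the replicate block gave 1621 and 2531 regions with 6 and 4 of the 41. The block ended the call at the Serpinc1 exon region (adjusted p = 0.0507) and at the Kng2 promoter (0.0621).

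No called value changed sign. With offsets on mean abundance the uncalled log2 fold changes changed sign at the promoters of F7 (-0.11), F10 (-0.054), F12 (-0.031), Proc (-0.13) and Serpinc1 (-0.19), at the F10 end (-0.022) and for the sums of F2 (-0.019), F7 (-0.068), F10 (-0.012), F12 (-0.0035), Proc (-0.13) and Serpinc1 (-0.14). With total counts this held for the F7 promoter (-0.048) and the sums of F12 (-0.0029), Proc (-0.046) and Serpinc1 (-0.014), with the replicate block for the F7 promoter (-0.047), and without 1 sample the F7 promoter ranged from -0.036 to 0.17. The region upstream of F11 was at 0.0025 with GC offsets. The region past the end of Serpinc1 was at 0.021 (DESeq2), 0.020 (limma voom), 0.033 (GC offsets), 0.11 (replicate block), 0.00081, 0.031 and 0.051 (aged samples 1 and 2, 1 and 4, and 2 and 4 summed) and -0.11 to 0.16 without 1 sample. The regions called less accessible rested on as few as 17 counts in a sample, and all 4 were still called when at least 10 counts were required in every sample.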

Other observations

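The spread between samples over the fibrinogen gene bodies prompted a look at 14 other genes, mostly of acute phase proteins, chosen after those values were seen. Their accessibility is given as the CPM summed over all regions of a gene, tested in the fit over 16231 genes. Haptoglobin (Hp), which binds free haemoglobin, measured 229, 227 and 354 CPM in young and 204, 230.1, 217 and 343 CPM in aged samples. The metallothionein gene Mt1, which encodes a metal-binding protein, measured 95.9, 104 and 239.6 CPM in young and 70.1, 57.9, 83.1 and 265 CPM in aged samples. The protease inhibitor gene Serpina3n measured 91.7, 132 and 224 CPM in young and 109.6, 93.2, 102 and 249.8 CPM in aged samples. Young replicate 3 and aged replicate 4 were the 2 highest samples at 9 of the 14 genes, these 3 among them, and at 458 of all 16231 genes (2.8%). This pair of samples was not set beforehand, so the 2 shares are a description and no test. Mt1 and Mt2 had close sums (239.6 and 245.3 CPM in young replicate 3), so the 9 are not all separate measurements. Aged replicates 1 and 4 were the 2 highest at 2 of the 14, Cp (232 and 221 CPM) and Fgl1, and at 2104 of all genes (13%), and the 2 highest samples were others at the remaining 3.

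Serum amyloid P (Apcs), a plasma pentraxin, was the 1 gene of the 14 that was called, where 6.1% of all genes were called more accessible, at 24.0, 16.8 and 29.1 CPM in young and 33.3, 36.5, 35.3 and 45.7 CPM in aged samples (log2 fold change 0.74 ± 0.18, edgeR adjusted p = 0.0352). Apcs was called in 10 of 20 alternatives, with adjusted p from 0.00306 (DESeq2) to 0.103 (without young replicate 2) and log2 fold changes of 0.52 to 0.92, and it was also not called without young replicate 1 (0.0671), aged replicate 1 (0.0775) or aged replicate 3 (0.0804). Fgl1, which encodes a liver protein with a fibrinogen-like domain, measured 67.4, 98.6 and 149 CPM in young and 172, 128, 123 and 154 CPM in aged samples and was not called (log2 fold change 0.48 ± 0.21, edgeR adjusted p = 0.146). Saa4, a serum amyloid A gene, was lower on average in aged liver and not called, at 117, 99.6 and 176 CPM in young and 79.6, 67.1, 87.8 and 138 CPM in aged samples (log2 fold change -0.47 ± 0.23, edgeR adjusted p = 0.182).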
